A study of Mus musculus with 6 samples.

Results

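MHC class II molecules are cell-surface heterodimers that display peptides, taken from proteins broken down in endosomes and lysosomes, to CD4+ T cells. In mice the I-A molecule is built from the chains encoded by H2-Aa and H2-Ab1, and the I-E beta chain is encoded by H2-Eb1. The invariant chain (Cd74) escorts new class II molecules to endosomes, where H2-DM (H2-DMa paired with H2-DMb1 or H2-DMb2) exchanges the last invariant chain fragment for peptide and H2-DO (H2-Oa with H2-Ob) restrains H2-DM. Ciita encodes the co-activator that switches on class II promoters. Class II genes are best known from B cells, dendritic cells and macrophages, and haematopoietic stem cells (HSCs) are also known to carry class II molecules.

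These 10 genes, chosen by name and matched by Ensembl ID to rows of the deposited table, are described here in HSCs sorted by their TMRM signal, a fluorescent read-out of mitochondrial membrane potential. All 10 were found among 28786 gene IDs, and all 10 passed the filter on low counts that left 13662 genes for testing. The study holds 3 TMRM-high and 3 TMRM-low libraries of bone marrow from wild-type C57BL/6 mice aged 6 to 8 weeks, each made from 1500 cells sorted for absence of lineage markers and CD48 and presence of Sca-1, c-Kit and CD150. The comparison its labels imply is how HSCs with a high TMRM signal differ in RNA from those with a low one. Nothing in the labels ties the libraries to separate animals, and the p-values therefore cover only the spread between these libraries, which may be technical. In sorted bulk samples, fewer cells of a type and less RNA per cell cannot be told apart.

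Estimated counts totalled 14270069 to 22070594 in TMRM-high against 15930495 to 18431567 in TMRM-low libraries. The TMRM-high libraries were far more alike than the TMRM-low ones. Chi-square per degree of freedom between pairs, over genes with at least 20 counts, was 3.80 to 6.84 among TMRM-high and 46.6 to 53.7 among TMRM-low libraries, against about 1 for counting noise. Amplified repeats of 1 sample can exceed that value too, so the check does not show that the 3 TMRM-high libraries are separate samples. They are treated as 3 because the labels list them so, and calls with them summed into 1 are given beside the results. As a check on the gate, Ly6a, which encodes Sca-1, had 30.3 ± 2.18 CPM (counts relative to the TMM-scaled library size) in TMRM-high against 167 ± 7.77 CPM in TMRM-low libraries (log2 fold change -2.47, SE 0.103, edgeR adjusted p = 1.0e-05). The other gate genes did not pass. Kit averaged 263 ± 4.93 CPM in TMRM-high against 248 ± 53.9 CPM in TMRM-low libraries, but Cd48 RNA exceeded RNA of Slamf1, which encodes CD150, in both groups (147 ± 2.82 against 5.53 ± 0.569 CPM in TMRM-high and 137 ± 22.6 against 5.13 ± 3.98 CPM in TMRM-low libraries). Of all genes tested 5.12% were lower in TMRM-high libraries and 5.84% higher, and of 9 HSC markers 3 were lower and 1 was higher. Their summed level was 558 to 566 CPM in TMRM-high against 708 to 726 CPM in TMRM-low libraries.

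Class II RNA was lower in TMRM-high HSCs, with 1 member going the other way. The genes for the I-A chains, the I-E beta chain, the invariant chain, the co-activator and both kinds of DM chain fell, while H2-Ob rose. By edgeR's quasi-likelihood test (two-sided, Benjamini-Hochberg adjusted p below 0.05 over all genes tested) 7 members were lower, where 5.12% of all genes tested were, and 1 was higher, where 5.84% of all genes tested were. H2-DMb2 and H2-Oa did not pass. The members were chosen with earlier results of these data known, so the shares over all genes are given for scale only. The groups did not overlap for any member: 9 lay lower in every TMRM-high library, as did 17.0% of all genes tested, and 1 lay higher, as did 18.4%. The median log2 fold change (TMRM-high minus TMRM-low) was -1.23 over the members and -0.03 over all genes tested. The summed level of the 10 genes was 520.1 to 545 CPM in TMRM-high against 1066 to 1079 CPM in TMRM-low libraries. The 3 strongest calls (Cd74, H2-Aa and H2-Ab1) held under every alternative run, whereas the calls of H2-Eb1, H2-DMa, H2-DMb1, H2-Ob and Ciita were lost when any 1 TMRM-high library was left out or when the TMRM-high libraries were summed into 1.

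**Figure D1:**
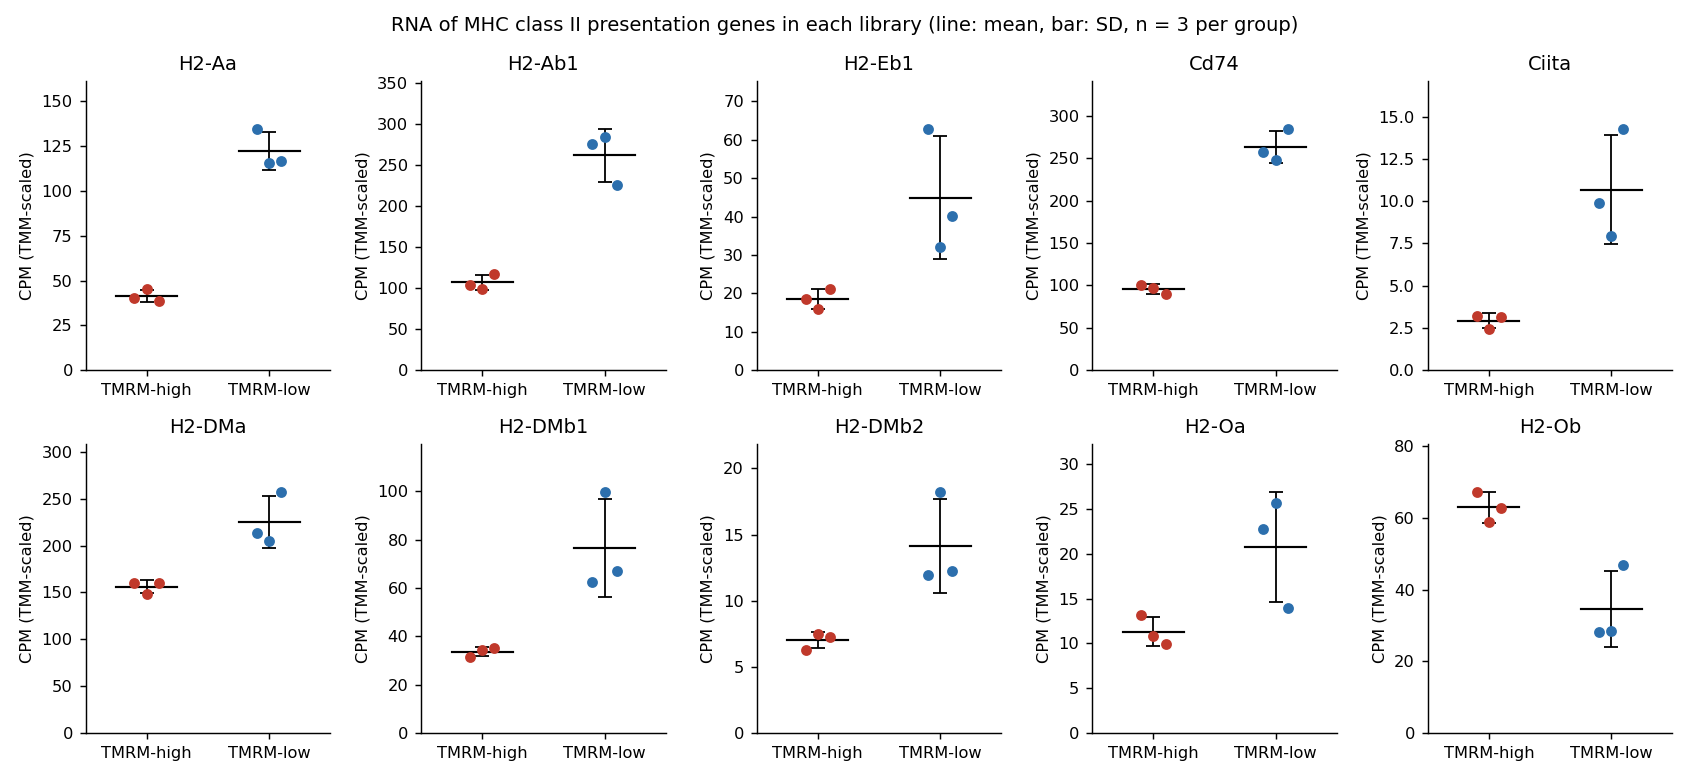
CPM (TMM-scaled, linear axis from 0) of the 10 class II genes in each library, with the group mean (line) and SD (bar, n = 3). Points of the TMRM-high libraries lie below those of the TMRM-low libraries in 9 panels and above them in the panel of H2-Ob.

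The I-A alpha chain gene H2-Aa (ENSMUSG00000036594, chromosome 17, 34282744 to 34287823 on GRCm38) had 40.1, 45.3 and 38.8 CPM in TMRM-high libraries and 134, 115 and 117 CPM in TMRM-low libraries. Every TMRM-high library was far below every TMRM-low one, and the log2 fold change was -1.56 (SE 0.120, 95% interval -1.84 to -1.28, edgeR adjusted p = 0.00023). Its partner H2-Ab1 (ENSMUSG00000073421, 34257689 to 34269419) had 104, 99.7 and 117 CPM in TMRM-high libraries and 276, 285 and 225 CPM in TMRM-low libraries. It fell too, with a log2 fold change of -1.29 (SE 0.114, interval -1.56 to -1.03, edgeR adjusted p = 0.00049). The ratio of H2-Aa to H2-Ab1 CPM was 0.390 ± 0.0623 in TMRM-high against 0.470 ± 0.0581 in TMRM-low libraries, and these values overlapped.

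H2-Eb1 (ENSMUSG00000060586, 34305867 to 34316674), the beta chain gene of I-E, had 18.5, 15.9 and 21.2 CPM in TMRM-high libraries and 62.7, 32.0 and 40.1 CPM in TMRM-low libraries. The TMRM-low libraries were spread widely, with library 1 at the top, and the log2 fold change was -1.28 (SE 0.276, edgeR adjusted p = 0.027). Without 1 TMRM-high library the adjusted p was 0.0984 to 0.139. C57BL/6 mice carry a defective I-E alpha gene and make no I-E protein. That gene, annotated as H2-Ea-ps, was at 0.0322 ± 0.0281 CPM in TMRM-high against 0.0208 ± 0.0360 CPM in TMRM-low libraries and was not tested. The ratio of H2-Eb1 to H2-Ab1 was 0.173 ± 0.0119 in TMRM-high against 0.173 ± 0.0577 in TMRM-low libraries.

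Class II promoters are known for an X box, bound by the RFX complex, and a Y box, bound by NF-Y, a fixed distance apart. The members' promoters are shown because 9 of the 10 genes lay lower in every TMRM-high library and H2-Ob did not. The 250 bases before the start were searched on both strands in the RefSeq promoter table (GRCm38.p6), which matched 7 of the 10 members with 8 promoters. The Y box letters ATTGG were in 7 of these 8, and in 33.8% of all 32851 promoters. The X box letters ACNGNTG were in 6 of 8, and in 32.3% of all promoters. The pair, with ATTGG starting 10 to 40 bases after ACNGNTG on the same strand, was in 3 of 8 (H2-DMb1, H2-DMb2 and H2-Eb1) and in 0.834% of all promoters. With the wider letters AACNNNTG, chosen after these promoters had been read and overlapping ACNGNTG where both match, the pair was in 4 of 8, H2-Ob being the fourth, and in 1.06% of all promoters. The H2-DMa promoters had no ATTGG from 130 to 31 bases before the start and are not shown. That from 34122582 held none of the letters searched, and that from 34125268 held ATTGG 198 bases before the start. Below are the bases from 130 to 31 before the RefSeq start for the other promoters, all on chromosome 17. The stretches run 5′ to 3′ on the gene's strand, with the AACNNNTG of such a pair and ATTGG in capitals. They come from chr17:34305737-34305836 (+) for H2-Eb1, chr17:34153061-34153160 (+) for H2-DMb1, chr17:34145119-34145218 (+) for H2-DMb2, chr17:34238775-34238874 (+) for H2-Ob, chr17:34287854-34287953 (-) for H2-Aa and chr17:34092249-34092348 (+) for H2-Oa.
H2-Eb1: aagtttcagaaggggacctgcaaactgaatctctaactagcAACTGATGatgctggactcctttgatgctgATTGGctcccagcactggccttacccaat
H2-DMb1: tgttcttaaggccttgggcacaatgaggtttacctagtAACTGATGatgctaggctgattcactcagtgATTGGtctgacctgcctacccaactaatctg
H2-DMb2: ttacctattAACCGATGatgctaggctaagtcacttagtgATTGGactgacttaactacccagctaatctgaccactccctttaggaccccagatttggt
H2-Ob: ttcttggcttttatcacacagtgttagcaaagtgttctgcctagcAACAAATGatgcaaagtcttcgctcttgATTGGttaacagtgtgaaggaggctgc
H2-Aa: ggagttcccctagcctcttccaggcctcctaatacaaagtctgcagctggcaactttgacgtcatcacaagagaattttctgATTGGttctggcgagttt
H2-Oa: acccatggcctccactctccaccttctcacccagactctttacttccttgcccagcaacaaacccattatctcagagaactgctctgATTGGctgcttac

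The 2 sets of letters started 30 bases apart in H2-Eb1, 31 in H2-DMb1 and H2-DMb2, and 28 in H2-Ob. H2-Ob, the 1 member that was higher in TMRM-high libraries, did not hold the pair with ACNGNTG. It held the pair with the wider letters, chosen after these promoters had been read, as did 3 members that lay lower there. A match is a description of letters and not a measured binding site, and a missing match says only that these letters are not in this window.

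Cd74 (ENSMUSG00000024610, chromosome 18, 60803848 to 60812652), the invariant chain gene, is the only member besides Ciita that lies outside the class II region. It had 100.2, 97.2 and 89.7 CPM in TMRM-high libraries and 257, 248 and 284 CPM in TMRM-low libraries. With a log2 fold change of -1.46 (SE 0.0868, interval -1.66 to -1.26) and an edgeR adjusted p of 8.1e-05 it was the member with the smallest p, the 35th of 13662 genes. The ratio of Cd74 to the summed H2-Aa, H2-Ab1 and H2-Eb1 was 0.575 ± 0.0608 in TMRM-high against 0.620 ± 0.108 in TMRM-low libraries, with overlapping values.

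The co-activator gene Ciita (ENSMUSG00000022504, chromosome 16, 10480059 to 10528418) was scarce in both groups. It had 71, 47 and 45 estimated counts in TMRM-high libraries (3.22, 2.41 and 3.12 CPM) and 171, 127 and 262 counts in TMRM-low libraries (9.89, 7.93 and 14.3 CPM). Its log2 fold change of -1.87 (SE 0.393, edgeR adjusted p = 0.023) was the largest of the members in size and the least precise, with an interval of -2.78 to -0.96. Without 1 TMRM-high library the adjusted p was 0.117 to 0.146. The opposite-strand gene Dexi shares 3.45% of Ciita's exon length. Whether strand was used in counting is not given in the sources used here, so reads of such overlapping genes cannot be told apart. Dexi had 18.4 ± 3.61 CPM in TMRM-high against 26.6 ± 13.7 CPM in TMRM-low libraries and did not pass.

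Both an alpha and a beta chain gene of the peptide exchange factor H2-DM fell. H2-DMa (ENSMUSG00000037649, 34119541 to 34139101) had 160.2, 148 and 159.8 CPM in TMRM-high libraries and 213, 205 and 257 CPM in TMRM-low libraries. Its groups were separate but closer than those of the class II chains, at a log2 fold change of -0.53 (SE 0.101, interval -0.76 to -0.29, edgeR adjusted p = 0.017). Of its annotated exon length 10.4% lies on exons of Brd2 on the other strand. Brd2 went the opposite way, at 268 ± 6.72 CPM in TMRM-high against 207 ± 17.9 CPM in TMRM-low libraries (log2 fold change 0.37, SE 0.0807, edgeR adjusted p = 0.027), and its part in the value of H2-DMa was not tested.

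H2-DMb1 (ENSMUSG00000079547, 34153072 to 34160230) had 31.6, 34.2 and 35.3 CPM in TMRM-high libraries and 62.5, 99.8 and 67.0 CPM in TMRM-low libraries. TMRM-low library 2 stood highest, and the log2 fold change was -1.18 (SE 0.199, edgeR adjusted p = 0.010). H2-DMb2 (ENSMUSG00000037548, 34143307 to 34151555), its neighbouring copy, had 6.31, 7.49 and 7.22 CPM in TMRM-high libraries and 12.0, 18.2 and 12.2 CPM in TMRM-low libraries. Its log2 fold change of -1.01 (SE 0.308, interval -1.73 to -0.30) did not pass (edgeR adjusted p = 0.077), though it did without TMRM-low library 1 (adjusted p = 0.0453) or 3 (0.0449). The copies share 31.4% of the 31-base words of H2-DMb1 and 29.7% of those of H2-DMb2, so their separate counts are uncertain. Summed into 1 row they had 40.7 ± 2.46 CPM in TMRM-high against 90.6 ± 23.9 CPM in TMRM-low libraries and passed (log2 fold change -1.16, SE 0.192, edgeR adjusted p = 0.0095). Without 1 TMRM-high library the adjusted p was 0.0845 to 0.107 for H2-DMa and 0.0603 to 0.0676 for H2-DMb1.

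Of the 2 chain genes of H2-DO, H2-Ob rose and H2-Oa did not pass. H2-Oa (ENSMUSG00000024334, 34092340 to 34095234) had 13.2, 10.9 and 9.93 CPM in TMRM-high libraries and 22.7, 25.7 and 13.9 CPM in TMRM-low libraries. TMRM-low library 3 came close to the TMRM-high values, and the log2 fold change of -0.88 (SE 0.302, interval -1.58 to -0.18) did not pass (edgeR adjusted p = 0.11). Without that library it passed, at -1.09 (edgeR adjusted p = 0.0226). An antisense gene that is not analysed here covers 22.8% of the exon length of H2-Oa.

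H2-Ob (ENSMUSG00000041538, 34238903 to 34254414) had 67.3, 58.8 and 62.8 CPM in TMRM-high libraries and 28.2, 28.5 and 46.8 CPM in TMRM-low libraries. All 3 TMRM-high libraries were above all 3 TMRM-low ones, with TMRM-low library 3 the nearest, and the log2 fold change was 0.87 (SE 0.220, interval 0.36 to 1.38, edgeR adjusted p = 0.045). The call lies close to the threshold. It was lost without any 1 TMRM-high library (adjusted p = 0.153 to 0.190), without TMRM-low library 1 (0.0759) and without TMRM-low library 2 (0.0785) by edgeR's test, while the log2 fold change stayed between 0.75 and 1.15 in all alternatives. The annotation shows no other gene on its exons and no shared 31-base word with another gene's transcripts. H2-DO is best known from B cells. Of 9 B cell markers 7 were higher in TMRM-high libraries by edgeR, where 5.84% of all genes tested were. The list summed to 328 to 346 CPM in TMRM-high against 42.2 to 46.0 CPM in TMRM-low libraries. Fcer2a (1.76 ± 0.790 CPM in TMRM-high against 1.88 ± 1.00 CPM in TMRM-low libraries) did not pass. Neither did Cr2 (1.00 ± 0.114 CPM in TMRM-high against 1.15 ± 0.757 CPM in TMRM-low libraries). The part of B cells in the value of H2-Ob was not tested.

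The make-up of class II pathway RNA differed between the sorts. The ratio of DO to DM RNA ((H2-Oa + H2-Ob) to (H2-DMa + H2-DMb1 + H2-DMb2)) was 0.406, 0.367 and 0.359 in TMRM-high libraries and 0.177, 0.168 and 0.180 in TMRM-low libraries. It was higher in every TMRM-high library. CPM were not divided by exon length here, so the long H2-Ob weighs more in this ratio, whose size and spread depend on that. The ratio of DM to summed class II chains was 1.22, 1.18 and 1.14 in TMRM-high libraries and 0.608, 0.748 and 0.881 in TMRM-low libraries. DM beta to DM alpha went the other way, at 0.236, 0.281 and 0.266 in TMRM-high libraries and 0.350, 0.575 and 0.308 in TMRM-low libraries. The ratio of H2-Ob to H2-Oa CPM was 5.61 ± 0.630 in TMRM-high against 1.90 ± 1.26 in TMRM-low libraries. H2-Ob has 5380 exon bases and H2-Oa 1407, so this ratio does not rank the 2 genes. Per kilobase of exons H2-Ob exceeded H2-Oa in TMRM-high libraries (11.7 ± 0.789 against 8.05 ± 1.18 CPM per kb). In TMRM-low libraries H2-Oa stood higher (14.8 ± 4.35 against 6.41 ± 1.98 CPM per kb). These ratios of RNA are descriptions without a test.

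**Figure D2:**
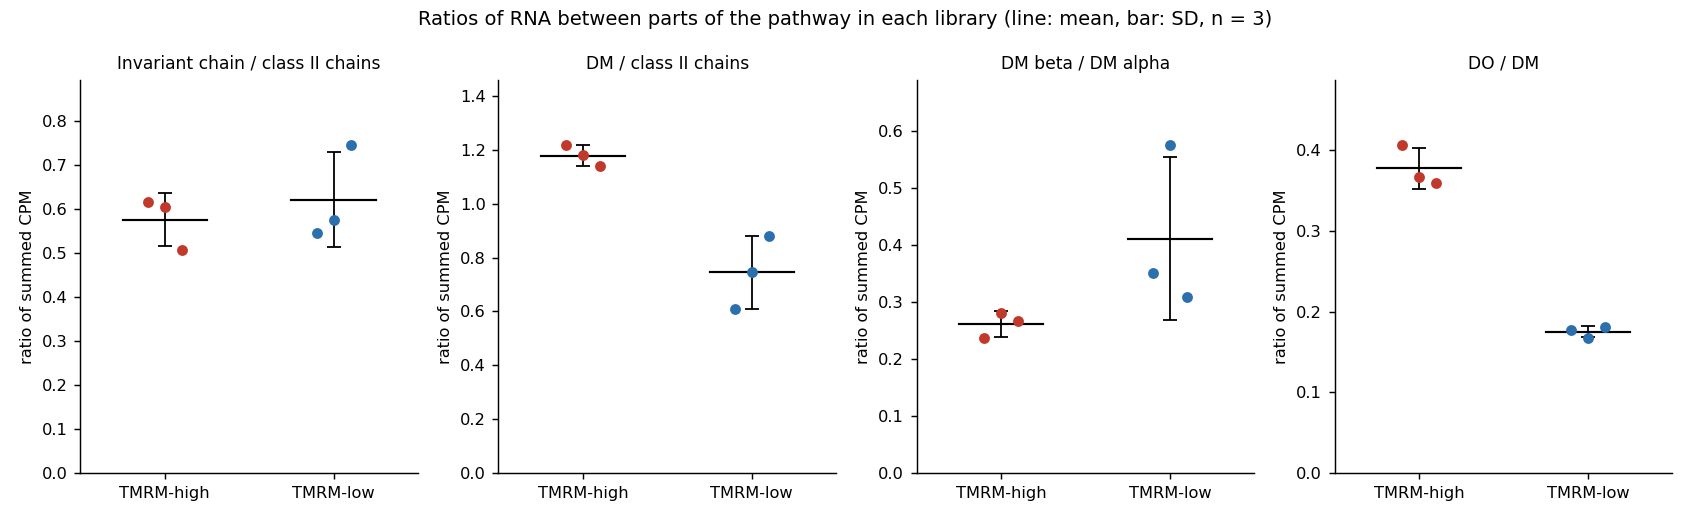
Ratios of summed CPM between parts of the class II pathway in each library (linear axes from 0), with mean (line) and SD (bar, n = 3 per group). CPM were not divided by exon length, so longer genes weigh more in the sums. The groups overlap for the invariant chain against the class II chains and are separate for DM against the chains, DM beta against DM alpha and DO against DM, where TMRM-high libraries lie at 0.359 to 0.406 and TMRM-low libraries at 0.168 to 0.180.

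Per kilobase of annotated exons, levels of different members can be set side by side, although genes with alternative exons are understated. In TMRM-high libraries Cd74 led with 57.0 ± 3.22 CPM per kb, followed by H2-DMa with 45.3 ± 1.95 and H2-Ab1 with 41.7 ± 3.60, whose values overlapped. H2-DMb1 had 20.03 ± 1.13, H2-Ob 11.7 ± 0.789, H2-Aa 10.9 ± 0.911, H2-Eb1 9.53 ± 1.39 and H2-Oa 8.05 ± 1.18 CPM per kb, and from H2-Ob to H2-Oa each gene overlapped the next. H2-DMb2 (4.01 ± 0.355) and Ciita (0.306 ± 0.0464) came last. In TMRM-low libraries the order of levels was Cd74 (157 ± 11.2 CPM per kb), H2-Ab1 (102 ± 12.5), H2-DMa (65.3 ± 8.14), H2-DMb1 (45.5 ± 12.1), H2-Aa (32.2 ± 2.81) and H2-Eb1 (23.1 ± 8.19). H2-Oa (14.8 ± 4.35), H2-DMb2 (8.10 ± 2.02), H2-Ob (6.41 ± 1.98) and Ciita (1.12 ± 0.340) followed. There, from H2-Aa to H2-Ob, each gene overlapped the next. H2-Ob was thus the fifth of the members in TMRM-high and the ninth in TMRM-low libraries.

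The class II region of chromosome 17 holds 8 of the members among 16 listed genes within 277.2 kb (GRCm38), and the sign of the change was mixed along it. Genes for class I antigen processing lie between H2-DMb1 and H2-Ob, and 3 of these 4 fell, where 5.12% of all genes tested did. Psmb8, an immunoproteasome subunit gene, had 473 ± 16.1 CPM in TMRM-high against 688 ± 59.2 CPM in TMRM-low libraries (log2 fold change -0.54, SE 0.0728, edgeR adjusted p = 0.0039). Psmb9, another such subunit gene, had 197 ± 4.75 CPM in TMRM-high against 275 ± 8.43 CPM in TMRM-low libraries (-0.48, edgeR adjusted p = 0.0034). Tap1, a peptide transporter gene, had 150 ± 1.11 CPM in TMRM-high against 215 ± 19.9 CPM in TMRM-low libraries (-0.52, edgeR adjusted p = 0.0089). Its partner Tap2 had 189 ± 6.31 CPM in TMRM-high against 224 ± 36.0 CPM in TMRM-low libraries and did not pass. H2-Ob, between Tap2 and H2-Ab1, was thus higher while called genes on either side of it were lower. Beyond H2-Eb1, the scarce H2-Eb2 (1.25 ± 0.257 CPM in TMRM-high against 1.10 ± 0.561 CPM in TMRM-low libraries) did not pass. The calls of Tap1 and Brd2 were lost without any 1 TMRM-high library, and those of all 4 called neighbours were lost with the TMRM-high libraries summed.

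**Figure D3:**
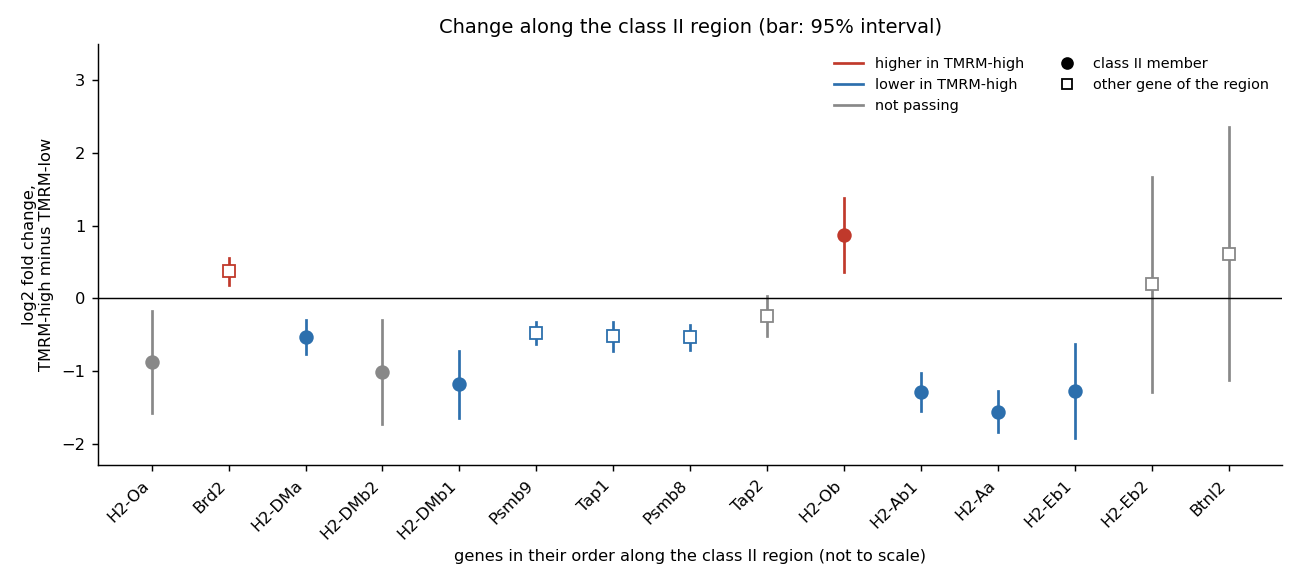
Log2 fold change (TMRM-high minus TMRM-low) with 95% interval of the tested genes of the class II region in their order along the chromosome, equally spaced. Filled circles are class II members and open squares other genes, coloured by the edgeR call. H2-Ob (0.87) and Brd2 (0.37) are the called genes above 0.

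Of the genes that act with or before the class II genes, a few moved. Of all 13662 genes tested edgeR called 5.12% lower and 5.84% higher. DESeq2 called 1337 of them lower and 1324 higher, and limma voom 881 lower and 812 higher. The 7 factors that bind the X and Y boxes (RFX subunits, NF-Y subunits and CREB1) gave no call: edgeR called 0, as did DESeq2 and limma voom, and 0 had an unadjusted p below 0.05. Their median log2 fold change was 0.05. Creb1 had 67.3 ± 1.94 CPM in TMRM-high against 69.0 ± 6.79 CPM in TMRM-low libraries, and Nfyb, an NF-Y subunit gene, had 55.6 ± 2.71 CPM in TMRM-high against 48.5 ± 6.19 CPM in TMRM-low libraries.

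Of 12 genes that act upstream of Ciita, chiefly in the interferon gamma pathway, 3 fell and 1 rose, where 5.12% of all genes tested fell and 5.84% rose. The median log2 fold change of the 12 was -0.13. Irf8, a myeloid and lymphoid transcription factor gene, had 173 ± 9.39 CPM in TMRM-high against 323 ± 22.3 CPM in TMRM-low libraries (log2 fold change -0.90, SE 0.0793, edgeR adjusted p = 0.00045). Irf2 had 46.5 ± 0.583 CPM in TMRM-high against 70.9 ± 6.65 CPM in TMRM-low libraries (-0.61, SE 0.125, edgeR adjusted p = 0.022). Its call was lost with the replicate block. The receptor chain gene Ifngr1 went the other way, at 215 ± 3.70 CPM in TMRM-high against 128 ± 26.3 CPM in TMRM-low libraries (0.75, SE 0.146, edgeR adjusted p = 0.018). The other 8 did not pass, among them Jak1 (224 ± 7.13 CPM in TMRM-high against 245 ± 19.9 CPM in TMRM-low libraries) and Spi1 (182 ± 10.5 CPM in TMRM-high against 215 ± 28.4 CPM in TMRM-low libraries). The calls of Ifngr1 and Irf2 were lost without any 1 TMRM-high library, and all 4 with the TMRM-high libraries summed.

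Of 6 genes for lysosomal processing of antigen and invariant chain, 2 fell and 0 rose, where 5.12% of all genes tested fell and 5.84% rose. By DESeq2 4 fell and 0 rose, and by limma voom 2 and 0. At an unadjusted edgeR p below 0.05, 4 were lower and 1 higher. Ctss, the protease that trims the invariant chain in antigen-presenting cells, had 21.4 ± 2.74 CPM in TMRM-high against 60.4 ± 12.4 CPM in TMRM-low libraries (log2 fold change -1.50, SE 0.203, edgeR adjusted p = 0.0040). Ctsd, a lysosomal aspartic protease gene, had 190.4 ± 5.98 CPM in TMRM-high against 248 ± 2.93 CPM in TMRM-low libraries (-0.38, SE 0.0644, edgeR adjusted p = 0.0097). Ctsb had 186 ± 6.79 CPM in TMRM-high against 145 ± 27.1 CPM in TMRM-low libraries, and Ctsl had 20.1 ± 1.65 CPM in TMRM-high against 26.7 ± 10.4 CPM in TMRM-low libraries, and neither passed. The call of Ctsd was lost without any 1 TMRM-high library, and both were lost with these summed.

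Genes for turnover and co-stimulation gave no call by edgeR, which called 5.12% of all genes tested lower and 5.84% higher. Of 3 turnover genes edgeR called 0, DESeq2 0 and limma voom 0, with 1 higher at an unadjusted p below 0.05. March8, a ubiquitin ligase gene, had 10.4 ± 1.05 CPM in TMRM-high against 7.64 ± 4.65 CPM in TMRM-low libraries, and March1, whose product removes class II molecules from the surface, had 2.46 ± 0.977 CPM in TMRM-high against 5.59 ± 6.41 CPM in TMRM-low libraries. Of 6 co-stimulatory genes edgeR called 0, while DESeq2 and limma voom each called 2 lower and 2 were lower at an unadjusted p below 0.05. Cd274, which encodes PD-L1, had 25.3 ± 1.59 CPM in TMRM-high against 42.9 ± 11.1 CPM in TMRM-low libraries (edgeR adjusted p = 0.061), and Icosl had 3.05 ± 0.635 CPM in TMRM-high against 3.98 ± 2.09 CPM in TMRM-low libraries.

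**Figure D4:**
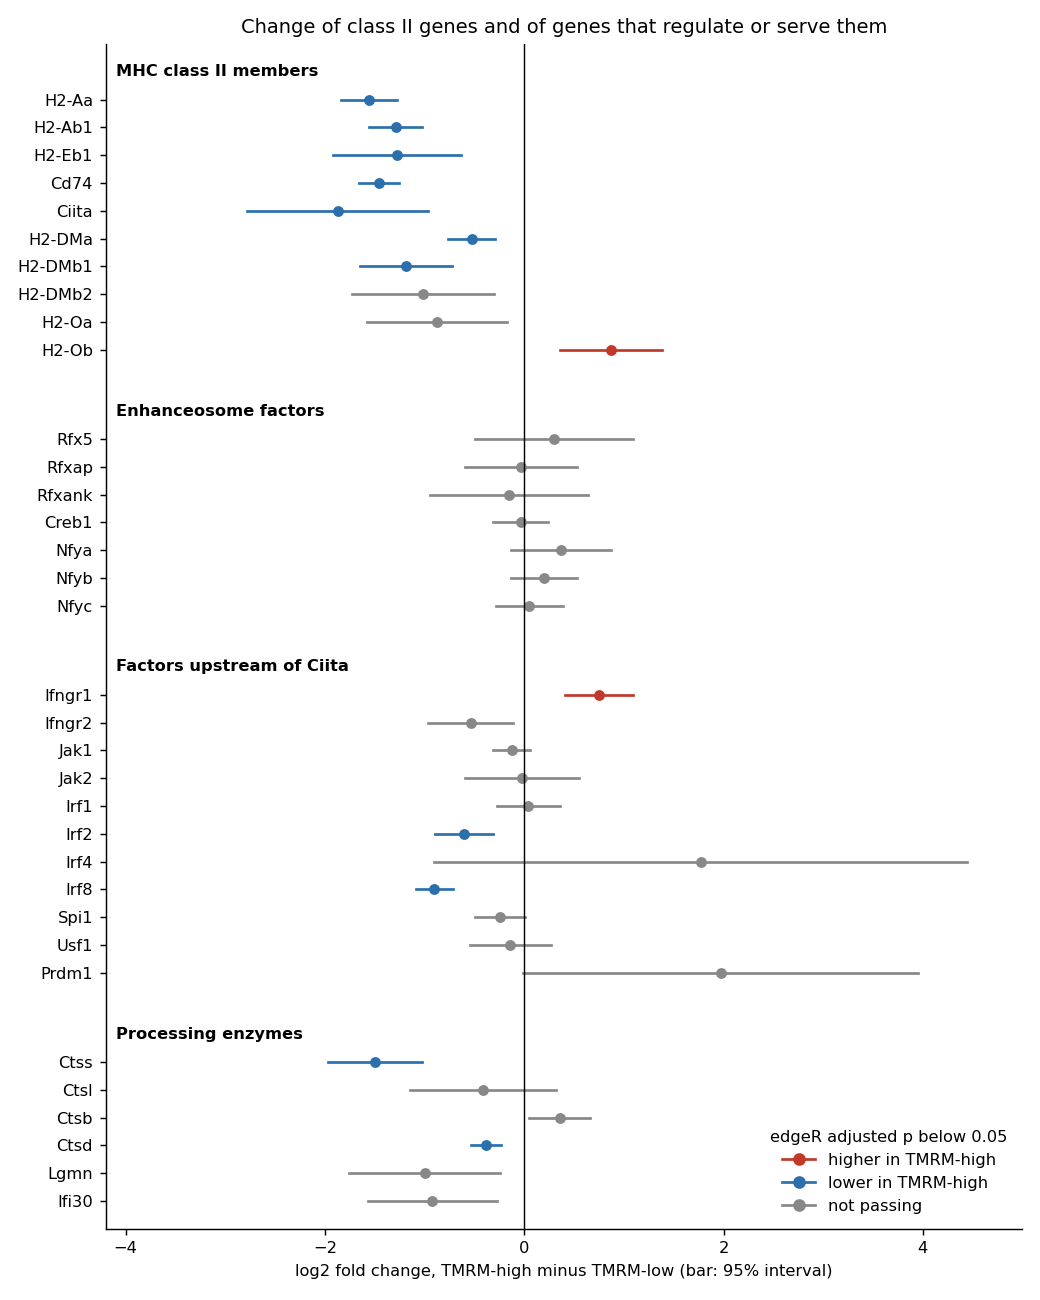
Log2 fold change (TMRM-high minus TMRM-low) with 95% interval of the 10 class II members, the 7 enhanceosome factors, reported factors upstream of Ciita and 6 processing enzymes, coloured by the edgeR call. The called members lie left of 0 apart from H2-Ob, and the enhanceosome factors gave no call.

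Some markers of other cell types differed between the sorts, in both directions. Of 9 B cell markers 7 were higher in TMRM-high libraries and 0 lower, where 5.84% and 5.12% of all genes tested were. Cd79a, a B cell receptor signalling gene, had 98.6 ± 7.71 CPM in TMRM-high against 2.04 ± 1.13 CPM in TMRM-low libraries. Ms4a1 (CD20) was at 0 in all TMRM-low libraries and at 0.971 ± 0.488 CPM in TMRM-high ones.

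Of 8 dendritic cell markers tested, edgeR called 1 lower and 0 higher, where 5.12% and 5.84% of all genes tested were. That 1 was Clec10a (5.43 ± 0.271 CPM in TMRM-high against 15.6 ± 4.43 CPM in TMRM-low libraries). Limma voom also called 1 lower and 0 higher, and DESeq2 called 2 lower and 0 higher. At an unadjusted edgeR p below 0.05, 2 were lower and 0 higher. Over the listed markers the summed level was 26.5 to 29.1 CPM in TMRM-high against 27.8 to 52.4 CPM in TMRM-low libraries. Of 8 monocyte and macrophage markers tested, C1qa, C1qb and Ccr2 fell and Ly6c2 rose. C1qb, a complement gene of macrophages, had 0.764 ± 0.0948 CPM in TMRM-high against 9.55 ± 3.70 CPM in TMRM-low libraries. The summed level of this list was 733 to 756 CPM in TMRM-high against 267 to 345 CPM in TMRM-low libraries, of which Ly6c2 made 655 ± 14.3 CPM in TMRM-high against 124 ± 8.89 CPM in TMRM-low ones. Of 5 T and NK cell markers tested, Cd3d, Ncr1 and Il2rb fell and Nkg7 rose. Their list summed to 605 to 610 CPM in TMRM-high against 339 to 416 CPM in TMRM-low libraries. Nkg7 alone made 556 ± 6.18 CPM of this in TMRM-high against 218 ± 24.1 CPM in TMRM-low ones. Among the HSC markers Procr and Hlf were lower and Gata2 was higher. The part of other cell types in the class II values was not tested. The calls of Cd79b, Ms4a1, Clec10a and C1qa were lost without any 1 TMRM-high library, and that of Ncr1 without TMRM-high library 1. Summing the TMRM-high libraries lost these and the calls of Pax5, C1qb, Ccr2, Cd3d, Il2rb, Procr and Gata2, while those of Cd79a, Ebf1, Vpreb1, Ly6c2, Nkg7, Hlf and Ly6a held in all alternatives. With the replicate block the calls of Ms4a1, Clec10a and C1qa were lost too, and by limma voom that of Ms4a1.

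The genes whose RNA followed that of Cd74 most closely were taken from 10269 genes with a mean of at least 5 CPM, by the distance between log2 CPM values centred on each gene's mean over the 6 libraries. They were Il11ra1, a receptor gene for interleukin 11 (distance 0.159), Cd3d, a T cell receptor complex gene (0.183), Igtp, an interferon-inducible GTPase gene (0.214), Myl10 (0.224) and A930005H10Rik (0.230). Among the members the nearest was H2-Aa (0.317, with 15 candidates nearer), then H2-Ab1 (0.533, 49 nearer) and Ciita (0.714, 138 nearer). H2-Ob was farthest (2.93, 9317 nearer). These distances all rest on the same 6 libraries, which form 2 groups, and are a description only.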

How the data were processed

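RNA of 6 sorted samples (3 TMRM-high, 3 TMRM-low) was amplified with 13 PCR cycles and sequenced as paired reads of 150 bases, per the labels' protocols. The authors deposited 1 table of estimated counts per gene ID, which need not be whole. Trim Galore 0.5.0, Salmon (listed as 0.03.1) and GRCm38 are named per the submitters' processing notes, while their annotation and settings are not given in the sources used. Symbols, positions, exon lengths and 31-base words came from GENCODE M21, which matched 27728 of 28786 IDs.

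Estimated counts were rounded. Genes passing edgeR's filterByExpr (13662) were scaled by TMM and tested with edgeR 4.0.16 (robust quasi-likelihood fit, TMRM-high against TMRM-low, Benjamini-Hochberg adjusted p below 0.05) in R 4.3.3. CPM are TMM-scaled, and errors are SD with n = 3. Ratios between genes were taken from CPM not divided by exon length. Alternatives used limma 3.58.1 (voom), DESeq2 1.42.0, other scalings and filters, a replicate block, an adjusted p below 0.10, each library left out, the TMRM-high libraries summed into 1, and the DM beta copies summed. The fit was also run on simulated data with the same spread in both groups. The libraries here differ in spread between groups, which that run does not cover. Reads without molecular identifiers are not independent molecules, and intervals over libraries cover only their spread.

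The members and lists were chosen with earlier results of these data known. Named were all members, every pathway gene that passed and up to 2 per list that did not (by mean CPM), markers that passed, and the 5 genes nearest to Cd74 (mean of at least 5 CPM, log2 CPM with prior count 2). Protein sequences were not used here. Some genes that the rule names are not reported here.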

Additional observations from a re-analysis of the deposited data

How the results depend on the processing

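Cd74, H2-Aa and H2-Ab1 kept direction and call in all 17 alternatives, with log2 fold changes of -1.50 to -1.40, -1.63 to -1.48 and -1.39 to -1.23, and no member changed sign. With 1 library left out, 3 to 9 members were lower and 0 to 1 higher, and over all genes 181 to 1174 were lower and 250 to 1398 higher; the low ends came without a TMRM-high library, and 0 higher members also without TMRM-low library 1 or 2. Summing the TMRM-high libraries into 1 left 3 members lower and 0 higher (42 genes lower, 86 higher), the lone sample being assumed to vary like the TMRM-low ones. DESeq2 called 1337 genes lower and 1324 higher, and H2-DMb2 (adjusted p = 0.00966) and H2-Oa (0.0362) passed there. An adjusted p below 0.10 gave 1138 genes lower. With the replicate block 449 genes were lower and 582 higher, 6 members were lower, and Ciita lost its call (-1.84, adjusted p = 0.064). Same-numbered libraries did not deviate together (r = -0.0139, 0.0165 and 0.0210), so the numbers were not taken as pairs. Among genes that did not pass, the log2 fold change turned sign without TMRM-low library 1 for H2-Eb2, 2 for Icosl and 3 for Creb1 and March1, and with 1 library left out ranged from -0.17 to 0.51 for H2-Eb2, -0.63 to 0.13 for Icosl, -0.11 to 0.017 for Creb1 and -1.74 to 0.28 for March1. The cause of these shifts was not tested. The 45 to 71 counts of Ciita in TMRM-high libraries limit its precision.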
